A study of Mus musculus with 2 samples.

Results

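Mir320, Mir484, Mir877 and Mir702 are mouse microRNA (miRNA) genes whose precursors are known to form without cleavage by Drosha. Their rows were found in both count tables by Ensembl identifier, as 4 of the 1973 miRNA genes counted. The small-RNA libraries came from limb of B6NCrl embryos of mixed sex at embryonic day 10.5, the stage of the early limb bud. There was 1 group of untreated tissue with 2 biological replicates, each made from pooled limbs, those of 69 embryos for replicate 1 and those of 51 for replicate 2. No other genotype, age or tissue was sampled, and no library lacked a processing enzyme, so the route by which each precursor formed was not measured here.

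A canonical miRNA is cut from a long transcript by the nuclear enzyme Drosha with its partner Dgcr8, exported, and cut again by Dicer. A transcription-start hairpin skips the first cut because the short transcript is itself the precursor: its 5′ end is the start of transcription and carries the cap that messenger RNAs have. The precursors of miR-320 and miR-484 are known examples of this class. A mirtron skips it in another way: the spliceosome removes a short intron, the lariat is opened, and the linear intron folds into the hairpin that Dicer cuts. Mir877 and Mir702 belong to this second class.

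The sequences below show where the 5′ splice site lies in both mirtrons, and the 3′ splice site in Mir877. They were taken from RefSeq (GRCm38.p6), which held 3 of the 4 genes, Mir484, Mir877 and Mir702. In each hairpin, written 5′ to 3′, capitals mark the first 2 bases of the intron and, where the hairpin holds them, its last 2.
Mir877 hairpin: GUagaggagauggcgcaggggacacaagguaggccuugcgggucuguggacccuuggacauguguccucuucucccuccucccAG
Mir702 hairpin: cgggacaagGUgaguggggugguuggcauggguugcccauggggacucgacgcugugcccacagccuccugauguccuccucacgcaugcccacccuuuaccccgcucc

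Mir877 (ENSMUSG00000077931, chr17:35960730-35960814, minus strand, GRCm38) coincided base for base with intron 12 of 22 of Abcf1, a gene for a translation factor of the ATP-binding cassette family. Mir702 (ENSMUSG00000076240, chr5:136991433-136991541, plus strand) lay at intron 13 of 18 of Plod3, the gene for a lysyl hydroxylase that modifies collagen. Its annotated hairpin did not match the intron exactly. It began 9 bases inside the upstream exon and stopped 2 bases before the end of the 102-base intron, so the final bases of that intron are not in the sequence shown. The annotated miR-702-5p, however, began at the first base of the intron, as miR-877-5p did. The 3′ arms ended 1 base before the last intron base for miR-877-3p and 2 bases before it for miR-702-3p.

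**Figure D1:**
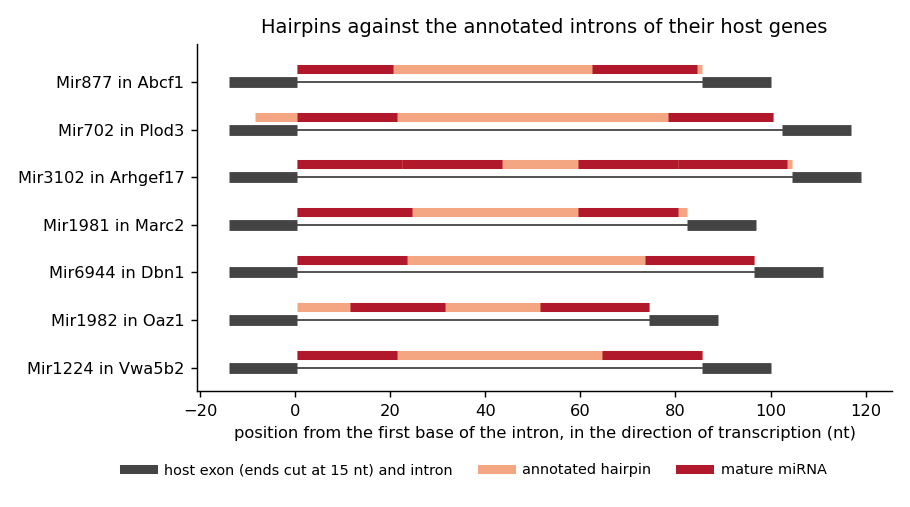
Position of annotated hairpins (light bars) and their mature miRNAs (dark red) against the introns of their host genes, in nucleotides from the first intron base. Mir877 fills its 85-base intron of Abcf1, and Mir702 starts 9 bases before its intron of Plod3; 5 further mirtrons are drawn for comparison.

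The mature miRNAs of these genes are shown to compare their seeds, the bases 2 to 8 (capitals) that pair with target messages. miR-3102-5p, from another mirtron, is added because it shares a seed with a product of Mir702.
miR-484: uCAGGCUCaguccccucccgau
miR-877-5p: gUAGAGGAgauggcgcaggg
miR-877-3p: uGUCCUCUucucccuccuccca
miR-702-5p: gUGAGUGGggugguuggcaug
miR-702-3p: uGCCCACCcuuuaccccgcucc
miR-3102-5p: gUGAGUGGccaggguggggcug

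The 5 mature sequences of Mir484, Mir877 and Mir702 had 5 different seeds, so these genes form no seed family among themselves. The other mature miRNAs in RefSeq were searched for these seeds, except those on chromosome 18, which were left out. Of those searched, 1 had a shared seed: miR-3102-5p had the seed of miR-702-5p. Both of these miRNAs begin at the first base of an intron, where the 5′ splice site sequence falls in and next to the seed. Each of the 5 mature sequences was found in 1 RefSeq hairpin alone. Copies elsewhere in the genome were not searched.

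The arms of the mirtrons differed sharply in base composition. miR-877-3p had 20 pyrimidines (C or U) in 22 bases, 90.9%, a share reached by 2 of 1679 mature mouse miRNAs including itself. miR-702-3p had 81.8%, reached by 42 of the 1679. The 5′ arms were purine-rich instead, with 20.0% pyrimidines in miR-877-5p and 33.3% in miR-702-5p, against a median of 50.0% over all mature miRNAs. Introns typically carry a run of pyrimidines before their 3′ end, where the splicing machinery binds. miR-484, from the other class, had 68.2% pyrimidines, a share reached by 273 of the 1679.

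The transcription-start hairpins had no host gene in the GENCODE M21 annotation. Mir320 (ENSMUSG00000065528, chr14:70443510-70443591, plus strand) lay 63 bases upstream of the nearest annotated start of Polr3d, a subunit gene of RNA polymerase III transcribed in the opposite direction. Mir484 (ENSMUSG00000070074, chr16:14159626-14159692, plus strand) lay 359 bases upstream of an annotated start of Marf1, a gene that controls messenger stability in meiosis, also transcribed the other way. A longer Marf1 transcript runs across Mir484 on the opposite strand. On the strand of Mir484 the next annotated start was that of Nde1, a centrosome gene needed for brain growth, 3583 bases further on. Mir320 therefore sat in a divergent arrangement with a protein-coding gene. Mir484 did so relative to that nearest Marf1 start, but lay within the span of the longer Marf1 transcript. Distance alone did not separate the classes, since Mir702 lay 83 bases upstream of the start of a shorter Plod3 transcript on its own strand. A search for hairpins without a host, within 500 bases upstream of a divergent start, was set after the positions of these genes were known. It found 25 genes, of which 4 (16.0%) had at least 10 counts in both libraries, close to 17.6% of all genes. Mir484 and Mir320 were the highest and second highest of them.

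Levels are given as sense read counts and as CPM, counts per 1000000 sense counts in miRNA genes. Those counts totalled 3581672 in replicate 1 and 3576482 in replicate 2, so depth in miRNA genes was nearly equal. Brackets hold exact 95% binomial intervals, which cover counting error alone. The 3 Hox and mesenchyme markers checked for limb (Mir10b, Mir196b and Mir214) had 16591 to 83632 CPM. The 4 markers of endothelium, epithelium, erythroid cells and leukocytes had 158 to 26707 CPM. Of these, Mir126a of endothelium had 26707 and 23683 CPM, above Mir214 of mesenchyme at 16591 and 20513 CPM. Mir122, Mir206 and Mir137 of liver, muscle and brain had 5.59 to 123 CPM. Another muscle marker, Mir1a-2, was not found by symbol among the counted genes. Of the 2 libraries, replicate 1 had the higher share of unmapped reads, 32.3% against 18.6%. In bulk tissue, fewer cells that make a miRNA and less of it per cell cannot be told apart.

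All 4 genes were detected, defined as at least 10 counts in both libraries, against a background of 17.6% of all genes. The 4 were chosen with earlier results of these data known, so this is not read as enrichment. Of the 1973 genes, 1270 had 0 counts in both libraries. Mir484 had 4869 counts in replicate 1 and 5663 in replicate 2, which is 1359 CPM (1322 to 1398) and 1583 CPM (1542 to 1625). This made it the most abundant of the 4, at 1471 ± 158 CPM (SD, n = 2) and rank 76 of 1973 by mean CPM. Mir320 had 1846 and 1547 counts, or 515 CPM (492 to 539) and 433 CPM (411 to 455). It followed at 474 ± 58.6 CPM (SD, n = 2), rank 125. The libraries of these genes did not overlap: the lower Mir484 value was above the higher Mir320 value.

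The mirtrons were lower and close to each other. Mir877 had 440 and 388 counts, or 123 CPM (112 to 135) and 108 CPM (98.0 to 120). Mir702 had 390 and 290 counts, or 109 CPM (98.3 to 120) and 81.1 CPM (72.0 to 91.0). Their means were 116 ± 10.2 CPM for Mir877 and 94.99 ± 19.7 CPM for Mir702 (SD, n = 2), ranks 184 and 196. The values overlapped between libraries, since Mir702 in replicate 1 was marginally above Mir877 in replicate 2. Every one of the values lay far above 0.838 and 0.839 CPM, the floors of 3 counts in replicates 1 and 2. Opposite-strand reads were nearly absent: 1 antisense count at Mir320 in replicate 2 and 0 at the other loci and libraries.

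**Figure D2:**
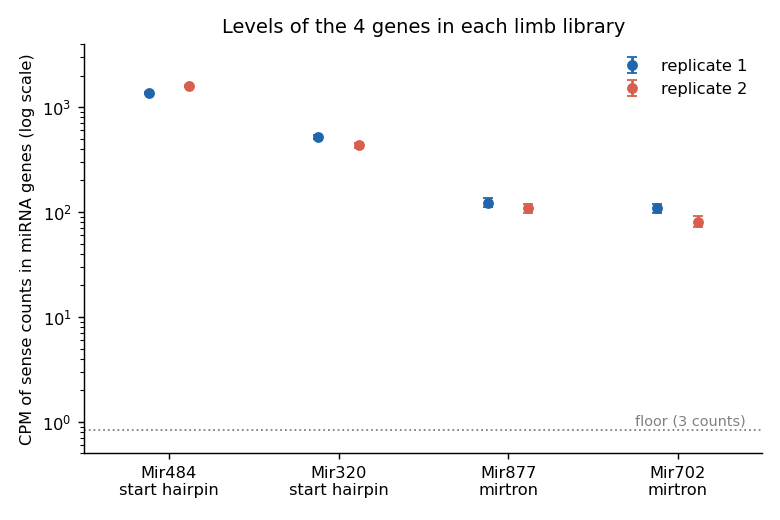
CPM of sense counts (log scale) of each gene in replicate 1 (blue) and replicate 2 (red), with exact 95% binomial intervals. Mir484 sits at 1359 and 1583 CPM, Mir320 at 515 and 433 CPM, and the mirtrons lie together between 81.1 and 123 CPM.

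The transcription-start hairpins together outnumbered the mirtrons in both libraries. They had 6715 and 7210 counts, 0.187% and 0.202% of all sense counts, whereas the mirtrons had 830 and 678 counts, 0.0232% and 0.0190%. The ratio of the class totals was 8.09-fold (7.53 to 8.71) in replicate 1 and 10.6-fold (9.83 to 11.5) in replicate 2, a mean log2 ratio of 3.21 ± 0.28 (SD, n = 2). A ratio within a library does not depend on scaling. With 2 libraries an exact two-sided sign-flip test cannot go below p = 0.5, so no test of this difference is given, and it describes 2 genes against 2 genes.

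Most counts of the transcription-start hairpins came from Mir484. Without it, Mir320 alone was 2.22-fold (2.05 to 2.42) and 2.28-fold (2.08 to 2.50) above both mirtrons together, log2 1.17 ± 0.03. Set against the single mirtrons, Mir320 was 4.20-fold and 3.99-fold above Mir877, and 4.73-fold and 5.33-fold above Mir702. The classes thus stood apart gene by gene: the lowest value of a transcription-start hairpin, 433 CPM, was above the highest of a mirtron, 123 CPM. Within the classes, Mir484 was 2.64-fold (2.50 to 2.78) above Mir320 in replicate 1 and 3.66-fold (3.46 to 3.87) in replicate 2. Mir877 was 1.13-fold (0.982 to 1.30) above Mir702 in replicate 1 and 1.34-fold (1.15 to 1.56) in replicate 2, so the order of the mirtrons was not resolved by counting in replicate 1.

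The replicates gave the same order of the 4 genes, and small shifts in level. The log2 ratio of CPM, replicate 2 minus replicate 1, was 0.22 (0.16 to 0.28) for Mir484, -0.25 (-0.35 to -0.15) for Mir320, -0.18 (-0.38 to 0.02) for Mir877 and -0.42 (-0.65 to -0.20) for Mir702. None of the 4 differed by over 2-fold, against a background of 10.8% of the 250 genes that averaged 100 counts or more. Those genes had a median log2 ratio of -0.27 and an SD of 0.66, so every one of the 4 shifts lay within 1 SD of the median. TMM scaling raised each ratio by 0.29. It turned Mir320 to 0.037 (-0.06 to 0.13) and Mir877 to 0.11 (-0.09 to 0.31) and moved Mir702 to -0.13 (-0.36 to 0.09), so the direction of these genes between the libraries was not settled. Mir484 was higher in replicate 2 under this scaling too, at 0.51 (0.45 to 0.56).

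**Figure D3:**
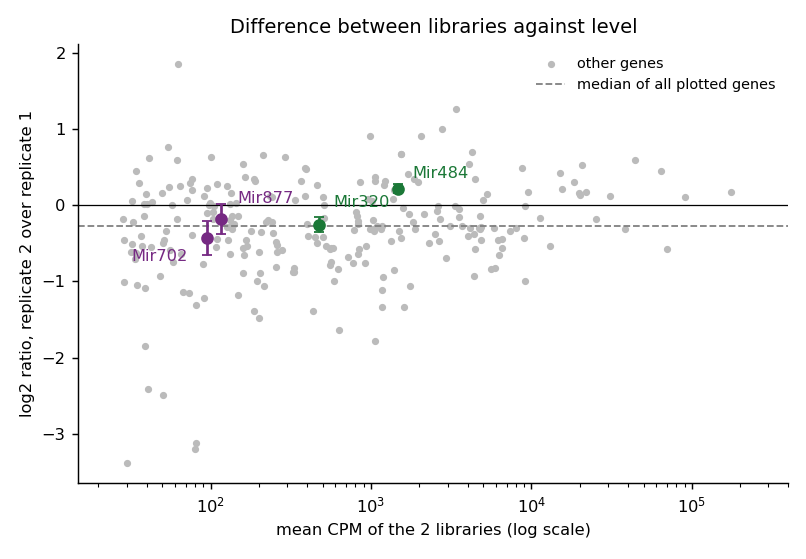
Log2 ratio of CPM, replicate 2 over replicate 1, against mean CPM (log scale) for the 250 genes that averaged 100 counts or more. The transcription-start hairpins (green) and mirtrons (purple) are shown with exact 95% binomial intervals. Mir320, Mir877 and Mir702 lie near the median of -0.27 (dashed), and Mir484 lies above it at 0.22.

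Shifts in the ratio of 1 gene or class to another can be read without any scaling. Of the 9 ratios computed, those that shifted beyond counting error all involved Mir484. The ratios reuse the same genes, so they are not separate results. Among the 250 genes, 47 had a higher log2 ratio between libraries than Mir484, and the SD was 0.66. How many other gene pairs shifted as much was not computed. The ratio of the class totals was 1.31-fold larger in replicate 2 than in replicate 1 (exact interval 1.18 to 1.46). The ratio of Mir484 to Mir702 was 1.56-fold larger (1.33 to 1.84), to both mirtrons 1.42-fold (1.28 to 1.59) and to Mir877 1.32-fold (1.14 to 1.52). The ratio of Mir484 to Mir320 was 1.39-fold larger (1.28 to 1.50), which is more than counting error, so the transcription-start hairpins did not shift by the same factor. The ratio of Mir320 to both mirtrons was 1.03 times its replicate 1 value (0.907 to 1.16), and that of Mir877 to Mir702 was 1.19 times (0.962 to 1.46). Both of these intervals include 1, which does not show that the genes moved alike.

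Annotation was then used to place the mirtrons among all hairpins of their kind. Of the 1973 genes, 23 had both hairpin ends within 5 bases of the ends of an annotated intron on the same strand, and 22 of them filled the intron exactly. Mir877 was among these and Mir702 was not, because of its 9 exon bases; within 10 bases the set grew to 29 and held it. Of the 16 exact hairpins with a RefSeq sequence, 15 began with GU and ended with AG. Among all 1005 RefSeq hairpins 30 (2.99%) did so, these 15 included. The exact hairpins were chosen by their intron ends, so splice-site bases there follow from the choice and are no separate result. In the 16 exact hairpins, which include Mir877 but not Mir702, the median pyrimidine share was 25.0% over 16 mature miRNAs of the 5′ side. Over 14 of the 3′ side it was 73.9%. The same choice put the 3′ arms near intron ends, where introns typically carry pyrimidines. This contrast is therefore no separate support for that seen in Mir877 and Mir702.

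Of the 23 genes, 5 were detected (21.7%), close to the background of 17.6% for all genes and to 22.4% for the 1033 genes inside a host. Most of the others had few counts, and in 5 of the 23 no count was found in either library. The median of their mean CPM was 0.978, against 0 over all genes.

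The mirtrons that were abundant had similar levels. Mir3102, in Arhgef17, led the 23 with 743 and 399 counts. Mir877 was second. Mir1981, in the mitochondrial reductase gene Marc2, had 380 and 357 counts, and Mir6944, in the gene Dbn1 for the actin-binding protein drebrin, had 407 and 238. Mir6958, in Dennd6b, was the fifth, with 13 and 15 counts. In the wider set within 10 bases, Mir3062 was also detected, with 33 and 41 counts, or 10.3 CPM on average. With Mir702, from that wider set too, 5 mirtrons had mean levels between 90.1 and 159.5 CPM, all below Mir320 and Mir484. All 5 were lower in replicate 2 by library total, as were 66.8% of the 250 genes, and 3 of 5 (Mir702, Mir3102 and Mir6944) were lower with TMM or DESeq2 scaling, as were 48.4% and 49.2% of the 250 genes. Mir3102 shifted most, by a log2 ratio of -0.89 (-1.07 to -0.72), more than its seed partner's gene Mir702.

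**Figure D4:**
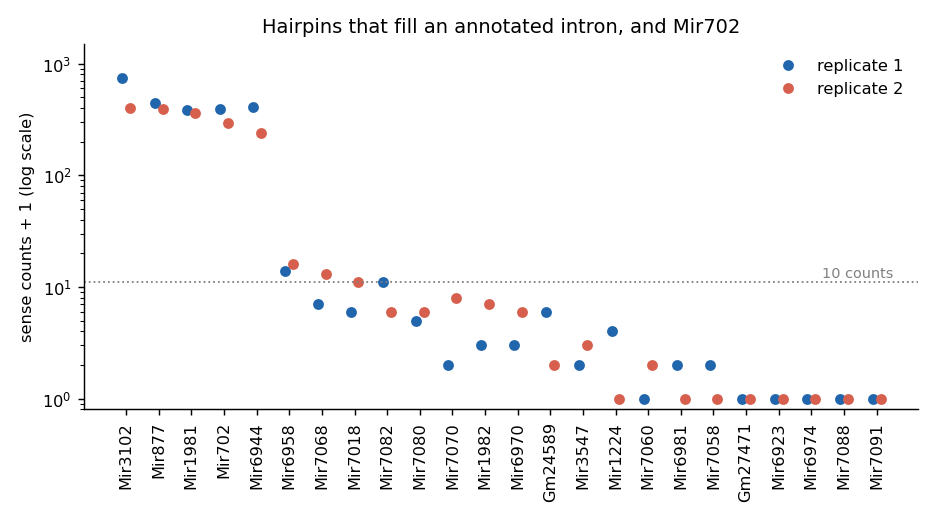
Sense counts plus 1 (log scale) in each library for the 23 genes whose hairpins end within 5 bases of both intron ends, and for Mir702, ordered by mean CPM. Mir3102, Mir877, Mir1981, Mir702 and Mir6944 have 238 to 743 counts, and all but Mir6958 of the others fall below 10 counts in at least 1 library.

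A list of other non-canonical miRNA genes gave 3 of 5 counted genes detected, against 17.6% of all genes. The list too was made with earlier results known, so this is not read as enrichment. Of its 4 mirtrons, Mir3102 and Mir1981 were detected. Mir1224, in a retained-intron transcript of Vwa5b2, had 3 and 0 counts, and Mir1982, in the polyamine regulator gene Oaz1, had 2 and 6. Mir451a, the erythroid miRNA that is cut by Ago2 in place of Dicer and still needs Drosha, had 1514 and 823 counts, or 423 and 230 CPM. It lay below Mir320 and above both mirtrons in each library. Mir1839 and Mir664, hairpins related to small nucleolar RNAs, were not analysed here.

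Other genes had nearly the same pair of values as each of the 4. Likeness was the distance between log2 CPM values over the 2 libraries, among 347 other detected genes. The nearest to Mir484 were Mir503 (distance 0.11) and Mir27b (0.16), and to Mir320 Mir155 (0.072) and Mir181a-2 (0.15). Mir329 (0.19) and Mir27a (0.21) were nearest to Mir877, and Mir500 (0.23) and Mir495 (0.26) to Mir702. Over 2 libraries such likeness describes level and little else. Mir181a-2 shares its mature sequence with another locus, which makes its own count uncertain.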

How the data were processed

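Small-RNA sequencing of 2 limb libraries was analysed. The values deposited for each library are unnormalized read counts, 1 row per miRNA gene; per the deposited readme texts, reads were aligned to mm10 and counted over GENCODE M4, 1 alignment per library. Aligner, counter and trimming: not given in the sources used here. Each table has counts for both strands, the sense strand and the antisense strand; sense counts were used. Rows that name no gene (unmapped, multimapping, outside genes, ambiguous), 64.4% and 50.5% of reads, were left out of totals. Reads that matched several loci, 32.3% and 31.2% of mapped reads, were counted at no gene, and arms of a hairpin were not separated. Each read is a whole small RNA, so counts were not divided by length.

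Of 1973 identifiers, 1894 matched GENCODE M21 (GRCm38, the build of mm10), which gave symbols, 1-based positions and introns; sequences are RefSeq's. Members and lists were chosen with earlier results of these data known. Named genes are the 4 members, 7 other non-canonical genes and the 2 nearest genes to each member. The 5 most abundant mirtrons by annotation and tissue markers were named too. Mir335, the most abundant gene, and Mir3062, of the wider mirtron set, were named after their values were seen. Log2 ratios between libraries carry a prior count of 1. Levels are mean ± SD of 2 libraries without tests, since there is 1 group. Intervals are exact (Clopper-Pearson), and those of a ratio of ratios are exact conditional ones; PCR reads are not independent molecules, so both cover counting error only. The floor is 3 counts. Scaling alternatives were TMM (edgeR 4.0.16) and DESeq2 1.42.0 size factors in R 4.3.3; other work used Python 3.11.15, pandas 2.3.3 and scipy 1.17.1. Scaling, ratios and intervals were tested on simulated data.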

Additional observations from a re-analysis of the deposited data

How the results depend on the processing

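Of the recomputed values, 45 were classed as the same as the reported one, 20 as moved and 2 as reversed. Levels and the class ratio were judged by the SD of the 2 libraries, and log2 ratios between libraries by their counting intervals. Counts of genes have no error and were judged by a fold limit. A single library always lies within that SD of the mean, so leaving out a replicate could not move a value. With all mapped reads as the denominator of CPM in place of gene counts, the mean levels were 839 for Mir484, 267 for Mir320, 65.3 for Mir877 and 53.3 for Mir702; without the most abundant gene, Mir335, in the denominator they were 1788, 575, 140.3 and 115. Both changes rescale all genes of a library alike, so the order of the 4 genes was the same. Log2 ratios between libraries depended on scaling. With TMM they were 0.51 for Mir484, 0.037 for Mir320, 0.11 for Mir877 and -0.13 for Mir702. With DESeq2 size factors they were 0.50, 0.023, 0.097 and -0.15 in the same order. Per mapped read they were 0.43 for Mir484, -0.040 for Mir320, 0.034 for Mir877 and -0.21 for Mir702. The reversed values are those of Mir320 under TMM and DESeq2; Mir877, whose interval includes 0, also turned positive. The log2 ratio of class totals was 1.17 without Mir484 and 4.37 without Mir877, and 3.01 to 3.41 in the single libraries; a prior count of 5 and counting both strands kept it within its SD. With at least 5 counts in both libraries, 8 of the 23 mirtrons by annotation (34.8%) were detected in place of 5, against 20.0% of all genes at that threshold. Counting limits the comparison of Mir877 with Mir702, and 2 libraries limit the others. How evenly different sequences were captured and amplified was not tested, so comparisons between genes or classes are comparisons of read counts.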
